A study of Mus musculus with 16 samples.

Results

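The antibody tag against c-Kit is described in 4 bone marrow libraries out of the 16 libraries of a single-cell DNA methylation study of mouse blood formation. c-Kit, listed as cKIT in the tag panel and also named CD117, is the surface receptor for stem cell factor. The cells described are those with 100 or more unique molecular identifiers (UMIs) over all antibody tags, which were 9715 of the 21441 cells in these libraries, out of 95930 cells in the series. They comprised 2675 of 5478 cells of LARRY main mouse 3 (48.8%), 1342 of 3385 of LARRY main mouse 4 (39.6%), 3103 of 4687 of LARRY replicate mouse 1 (66.2%) and 2595 of 7891 of the native library (32.9%). The choice used the total tag count of a cell, of which its c-Kit count is a part, and not its methylation.

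c-Kit is a class III receptor tyrosine kinase, the family that also holds CD135 (Flt3) and CD115 (the receptor for macrophage colony-stimulating factor). Binding of stem cell factor, which niche cells make as a membrane-bound and a soluble form, brings receptors together and switches on the kinase. In bone marrow the receptor is carried by haematopoietic stem and progenitor cells and kept by mast cells, and most lineages lose it as they mature. In mouse it is encoded by Kit on chromosome 5 (75574987 to 75656722, GRCm38.p6).

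LARRY is an expressed lentiviral barcode with which clones are followed, and the native library came from marrow labelled as native haematopoiesis. All 4 libraries are labelled as bone marrow and immune cells, with 1 library per mouse title and 1 native library. The labels used here give no age, strain, sex or sort gate. The names under which replicate mouse 1 and the native library were deposited hold the letters LK, and the first also LSK, which in this field commonly stand for sorts on c-Kit, without and with Sca-1. Such a sort would narrow the range of the tag in these libraries and bear on their levels and rho values, and the labels do not state it. Methylation was read by scTAM-seq, in which a methylation-sensitive enzyme cuts unmethylated target sites and an amplicon with reads is taken as methylated. The 663 amplicons of the panel carry identifiers without a gene or position in the sources used here, and are called by these identifiers.

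The tag panel held 20 measured tags in the LARRY main libraries, 19 in LARRY replicate mouse 1 and 4 in the native library (c-Kit, CD48, CD150 and Sca-1). Median reads per cell over all cells were 45003.5 in main mouse 3, 61981 in main mouse 4, 60095 in replicate mouse 1 and 46553 in the native library. Over the cells used they were 45911, 36300, 68135 and 59689 in the same order. Main mouse 4 thus had the highest median over all cells and the lowest over the cells used. Median tag UMIs per cell used were 215, 212, 301 and 186 in the same order. Pairs of libraries shared 5 to 24 cell barcodes, at most 0.438% of the smaller library.

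c-Kit was among the more abundant tags, at rank 4 or 5 by mean count of 19 or 20 tags in the LARRY libraries and at rank 3 of 4 in the native library. Its median was 18 UMIs in main mouse 3 (quartiles 9 to 35), 17 in main mouse 4 (8 to 32), 26 in replicate mouse 1 (12 to 52) and 27 in the native library (15 to 46). The 5th to 95th percentiles ran from 2 to 79, 2 to 88.95, 3 to 158 and 5 to 100.3 UMIs in these libraries. The interquartile ranges of all 4 libraries overlapped, and libraries stained with different panels allow no test of their levels. In windows 20 tag UMIs wide, cells just inside the limit had medians of 9, 8, 9 and 16 c-Kit UMIs, and cells just outside it had 7, 7, 9 and 14.

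As a share of a cell's tag UMIs, c-Kit had a median of 7.48% in main mouse 3, 7.35% in main mouse 4, 8.05% in replicate mouse 1 and 13.1% in the native library, where only 3 other tags share the total. Barcodes without a cell and with at most 10 tag UMIs carry free tag. There c-Kit made up 5.64% of UMIs in main mouse 3, 6.23% in main mouse 4, 8.02% in replicate mouse 1 and 16.8% in the native library. The median cell was thus above the free-tag share in the LARRY main libraries, at about that share in replicate mouse 1 and below it in the native library. The free-tag share is pooled over UMIs and is not a median of barcodes. Pooled in the same way over the cells used, c-Kit made up 7.16%, 7.67%, 7.32% and 10.6%. By that measure replicate mouse 1 also lay below its free-tag share. The level of the median cell was therefore not separable from free tag in the last 2 of these libraries.

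The spread between cells exceeded counting error in all 4 libraries. With 1 common share per library, set at the mean of the shares of its cells, about 5% of cells would fall outside the central 95% binomial range of their total. Outside it were 53.9% of cells in main mouse 3, 56.3% in main mouse 4, 62.6% in replicate mouse 1 and 57.1% in the native library. Between 20.4% and 22.8% of cells lay above the range, and between 33.4% and 39.8% below it. The mean share was 9.05%, 8.86%, 9.73% and 15.0% in these libraries, above the median share in each. The split into cells above and below therefore depends on this centre. These ranges cover counting error only.

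The share of cells with any c-Kit UMI was not informative. It was 98.8% in main mouse 3, 98.4% in main mouse 4, 98.8% in replicate mouse 1 and 99.6% in the native library, and only 33, 21, 38 and 11 cells had none. Thinned to 100 tag UMIs per cell, 96.7%, 96.6%, 96.5% and 98.8% of cells still had one, with medians of 7, 7, 8 and 13 c-Kit UMIs.

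The library of LARRY mature myeloid cells from bone marrow and peripheral blood also held the tag, on a larger panel of 127 tags. As background, most mature myeloid cells other than mast cells carry little of the receptor. In its 3902 cells with 100 or more tag UMIs c-Kit had a median of 47 UMIs and was the most abundant tag, while the isotype control tags had medians of 2 to 4. All of its cells had a c-Kit UMI, also after thinning to 100, when the median was 18. Its median share was 18.3% (quartiles 16.2 to 20.7) in cells and 22.9% in barcodes without a cell. Only 17.1% of its cells fell outside the binomial range of a common share. The c-Kit tag there was high, narrow and below the free-tag share, so shares of cells with a UMI and absolute counts were not used to call a cell c-Kit positive in any library.

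**Figure D1:**
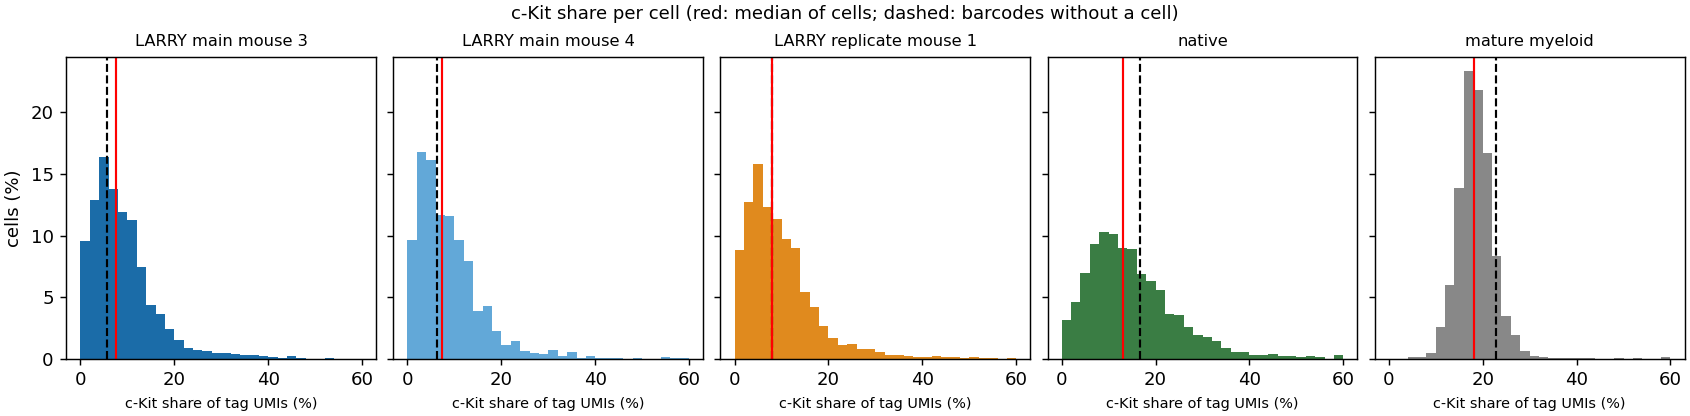
Share of a cell's tag UMIs that were c-Kit (x axis, %) against the percent of cells (y axis) in the 4 marrow libraries and the mature myeloid library, for cells with 100 or more tag UMIs. The red line is the median of cells and the dashed line the share pooled over UMIs of barcodes without a cell. These lines coincide in replicate mouse 1 (8.05% and 8.02%), and the mature myeloid distribution is the narrow one around 18.3%.

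Among the other tags, those most like c-Kit by the partial Spearman rho given total tag UMIs were CD49f, CD27 and CD150, by the mean over the libraries that held each tag. CD49f, the integrin alpha 6 chain, had a rho of 0.40 in main mouse 3, 0.46 in main mouse 4 and 0.27 in replicate mouse 1. CD27, a receptor of the tumour necrosis factor family found on stem and lymphoid-primed progenitors, had 0.23, 0.30 and 0.19 in these libraries. CD150, a marker of stem cells and of megakaryocyte and erythroid progenitors, was close to 0 in the LARRY libraries (0.01, -0.02 and 0.04) and had 0.10 in the native one. The first 2 were positive in every library that held them, and CD150 was not. CD150 (mean 0.033) stood above CD48 (mean 0.032) only through the native library, since CD48 was higher than CD150 in all 3 LARRY libraries.

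By the same mean, the tags least like c-Kit were CD61, CD9 and I-A/I-E. CD61, the integrin beta 3 chain of platelets and megakaryocytes, had a rho of -0.17 in main mouse 3, -0.31 in main mouse 4 and -0.23 in replicate mouse 1. CD9, a tetraspanin of the same lineage, had -0.15, -0.24 and -0.18 in these libraries. I-A/I-E, the class II histocompatibility molecules of antigen-presenting cells, had -0.18, -0.11 and -0.13. CD41, another megakaryocyte tag, was near 0, with a mean of 0.01. Given total tag UMIs, the relation was negative in every library for CD61, CD9 and I-A/I-E.

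Of the 6 other stem cell tags, CD27 and CD150 had a positive mean rho and the other 4 a negative one. Sca-1, which with c-Kit defines the classical stem cell gate, had a rho of -0.13 in main mouse 3, -0.06 in main mouse 4, -0.12 in replicate mouse 1 and -0.02 in the native library. CD201 averaged -0.07, CD34 -0.05 and ESAM -0.06 over 3 libraries. Of the fellow class III receptors, CD135 averaged -0.08 and CD115 -0.08. FceRIa, the IgE receptor that mast cells and basophils carry, averaged -0.04, and Ter-119, an erythroid marker, 0.02. CD90, listed as a T cell marker, averaged -0.01, with -0.06 in main mouse 3, -0.01 in main mouse 4 and 0.04 in replicate mouse 1. CD127, the interleukin-7 receptor of lymphoid progenitors, averaged -0.12, and CD16/32, Fc receptors of myeloid progenitors, -0.08 over the 2 libraries in which it was measured. Most of these tags had few counts. CD201 had a median of 0 UMIs in all 3 LARRY libraries. In main mouse 3 the median was 1 for CD150, CD135, CD127, CD16/32, FceRIa and Ter-119. It was 2 for Sca-1, ESAM, CD115 and CD90, 3 for CD34 and 11 for CD27, against 57 for CD49f. At such low counts a rho near 0 is weak evidence that a tag is unrelated to c-Kit.

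These signs depend on the total that is held fixed. Given total tag UMIs, 6 of the 19 other tags had a positive mean rho. Without any covariate all 19 were positive, CD61 with 0.14 and CD49f with 0.63. With the total of the tags other than the pair, 12 were positive. I-A/I-E was among these with a mean of 0.03, while CD9 had -0.04 and CD61 -0.16. The tags least like c-Kit changed too. With the centred log ratio of the tags, CD127 had -0.39 in main mouse 3, -0.42 in main mouse 4 and -0.30 in replicate mouse 1. In these libraries CD61 then had -0.21, -0.30 and -0.26, CD9 -0.04, -0.10 and -0.03, and I-A/I-E 0.05, 0.06 and -0.03.

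The relation with CD48, a marker absent from the most primitive stem cells, depended on the total held fixed and on the minimum of tag UMIs. Given total tag UMIs its rho was 0.16 in main mouse 3, 0.25 in main mouse 4 and 0.21 in replicate mouse 1, against -0.49 in the native library. CD48 made up 15.9%, 16.2% and 20.7% of the tag UMIs of the LARRY libraries, and 57.1% in the native library. With a minimum of 300 tag UMIs it was 0.28, 0.34 and 0.25 in these LARRY libraries, against -0.06 in the 585 native cells left. With a total of the tags other than the pair it was 0.36, 0.44 and 0.43, against 0.33 in the native library, and with no covariate 0.49, 0.54 and 0.51, against 0.38. With the centred log ratio it was 0.39, 0.44 and 0.41, against 0.16. With a total made of the 4 tags that all libraries hold, which for the native library is its whole panel and so the same total as before, the LARRY values were -0.59, -0.57 and -0.50.

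**Figure D2:**
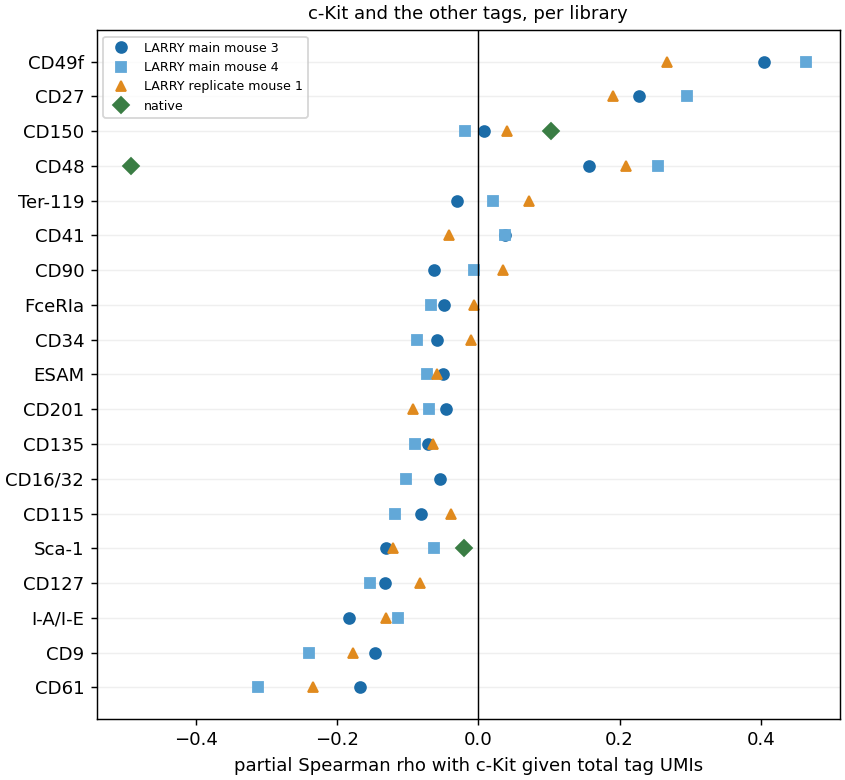
Partial Spearman rho of c-Kit with each other tag given total tag UMIs (x axis) for the tags ordered by their mean (y axis); each point is 1 library. CD49f and CD27 lie right of 0 and CD61, CD9 and I-A/I-E left of 0 in every library that holds them, and CD48 lies right of 0 in the LARRY libraries and at -0.49 in the native one.

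Methylation varied with c-Kit in both directions, and the strongest relations were negative. For each library the rank of c-Kit and the call of each amplicon were corrected for reads and total tag UMIs and correlated, and the 4 library values were tested with limma over all amplicon and tag pairs. At an adjusted p of 0.05, c-Kit was associated with 159 of 588 amplicons (27.0%), 59 positively (10.03%) and 100 negatively (17.01%). The background over all 11172 pairs of 19 tags was 22.7% called, 16.5% positive and 6.16% negative. The total of c-Kit calls was thus near the background. Positive calls were 37.1% of the c-Kit calls, but 66.3% when reads were the sole covariate and 21.3% with the centred log ratio of the tags, so the balance of signs depended on how the tag total was treated. c-Kit and Sca-1, with 159 calls each, came next among the 19 tags after CD49f with 196, CD61 with 181, CD150 with 173, ESAM with 169 and CD27 with 162. Like CD48, with 91 negative of 153, c-Kit had more negative than positive calls, and the other 17 tags had more positive ones.

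Of the 159 called amplicons 158 had the same sign in all 4 libraries, which the test of the library values against 0 itself favours. The exception was AMPL371723, with a partial r of 0.03 in the native library and negative values in the LARRY libraries. The correlations were small, with a median absolute mean r of 0.02 over tested amplicons. The mean r was beyond 0.1 in size for 71 amplicons and beyond 0.2 for 19, and all 19 were negative. Without main mouse 4 the count of calls was 96, with 26 positive and 70 negative. Without replicate mouse 1 there were 103 positive calls, and without main mouse 3 there were 39.

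The amplicon most strongly related to c-Kit was AMPL376917, which was methylated less often in cells with more c-Kit. Its partial r was -0.29 in main mouse 3, -0.34 in main mouse 4, -0.28 in replicate mouse 1 and -0.28 in the native library (limma adjusted p = 6.86e-05). Cells of each library were split into 5 equal bins (quintiles) of the c-Kit rank after correction for reads and total tag UMIs, with 535 cells in the highest bin of main mouse 3, 268 of main mouse 4, 621 of replicate mouse 1 and 519 of the native library. In the highest quintile it was methylated in 24.7% of cells in main mouse 3, 20.5% in main mouse 4, 15.1% in replicate mouse 1 and 36.0% in the native library. In the lowest quintile it was methylated in 63.9%, 69.0%, 54.6% and 77.5% of cells in these libraries. The values of the highest quintile all lay below those of the lowest. The amplicon was chosen on the same cells and the same c-Kit rank, so these values give the size of the relation and are no further test of it, and the same holds for the other named amplicons. The mean was 24.1% ± 8.87 in the highest and 66.3% ± 9.57 in the lowest quintile (SD, n = 4 libraries), a difference of -42.2 ± 4.34 percentage points. The decrease ran through all 5 quintiles.

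The size of the difference varied among the other 9 amplicons named for negative relations. AMPL365894, with a mean r of -0.26, was methylated in 51.0%, 47.4%, 42.8% and 67.1% of cells of the highest quintile in main mouse 3, main mouse 4, replicate mouse 1 and the native library. In the lowest quintile it was methylated in 79.8%, 87.7%, 75.7% and 96.3%. AMPL366082, with a mean r of -0.26, averaged 55.5% ± 12.4 in the highest and 87.3% ± 8.31 in the lowest quintile (SD, n = 4). In these amplicons most of the drop came at the step into the highest quintile. From the lowest to the highest quintile AMPL371589, AMPL388788 and AMPL366088 fell by 33.3, 34.2 and 34.4 points on average. Over the same span AMPL366052, AMPL355546, AMPL388246 and AMPL376551 fell by 27.3, 26.4, 23.7 and 23.2 points.

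On the positive side the changes were smaller. AMPL388770 was methylated in 64.3% of cells of the highest quintile in main mouse 3, 61.2% in main mouse 4, 76.0% in replicate mouse 1 and 44.7% in the native library. In the lowest quintile the values were 43.7%, 33.2%, 57.5% and 20.0%. Each library had the higher value in its highest quintile, although the 2 sets of values overlapped between libraries. The mean difference was 22.9 ± 4.23 points (SD, n = 4) and the mean r 0.17 (limma adjusted p = 0.000232).

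AMPL388705 had the largest positive mean r, 0.19 (limma adjusted p = 0.000136). It was near complete in the highest quintile, at 97.3% ± 0.911, against 83.5% ± 3.65 in the lowest (SD, n = 4). The step was mainly between quintiles 1 and 2. AMPL376597 had 0.27 in main mouse 4 but 0.07 in the native library, the widest range among the named amplicons, and averaged 93.7% in the highest and 79.9% in the lowest quintile. AMPL371800, AMPL388576, AMPL388409 and AMPL376910 were 16.7 to 17.1 points higher in the highest quintile. AMPL371481, AMPL376955 and AMPL388365 were 9.75 to 13.1 points higher.

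**Figure D3:**
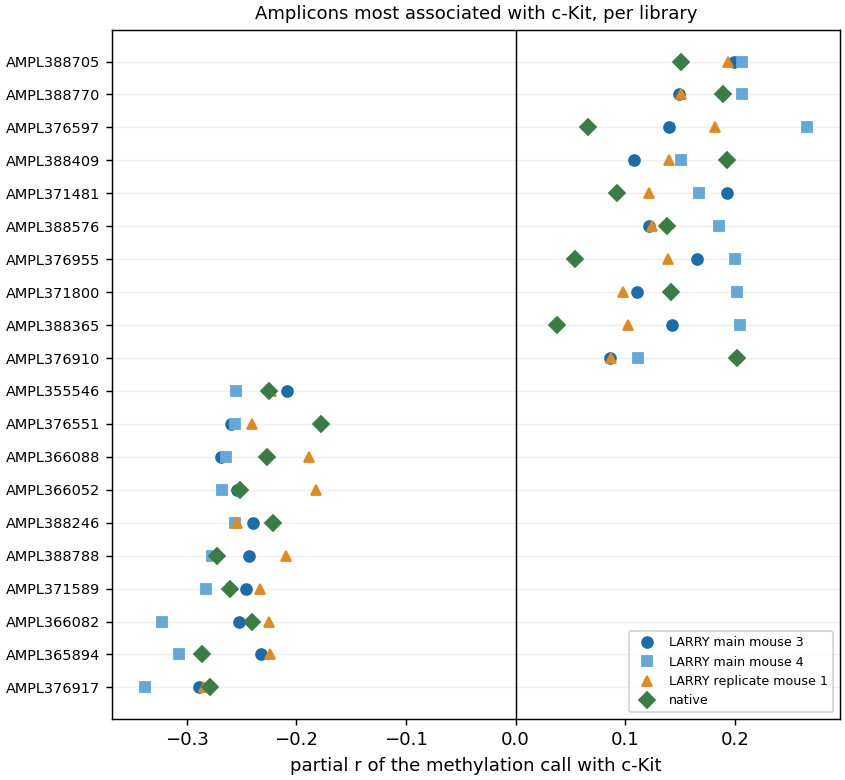
Partial r of the methylation call with c-Kit (x axis) at the 20 named amplicons, 10 of each sign (y axis); each point is 1 library. The 20 amplicons were chosen with the same sign in all 4 libraries, so no point can cross 0. The native values of AMPL376597, AMPL376955 and AMPL388365 lie closest to it.

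**Figure D4:**
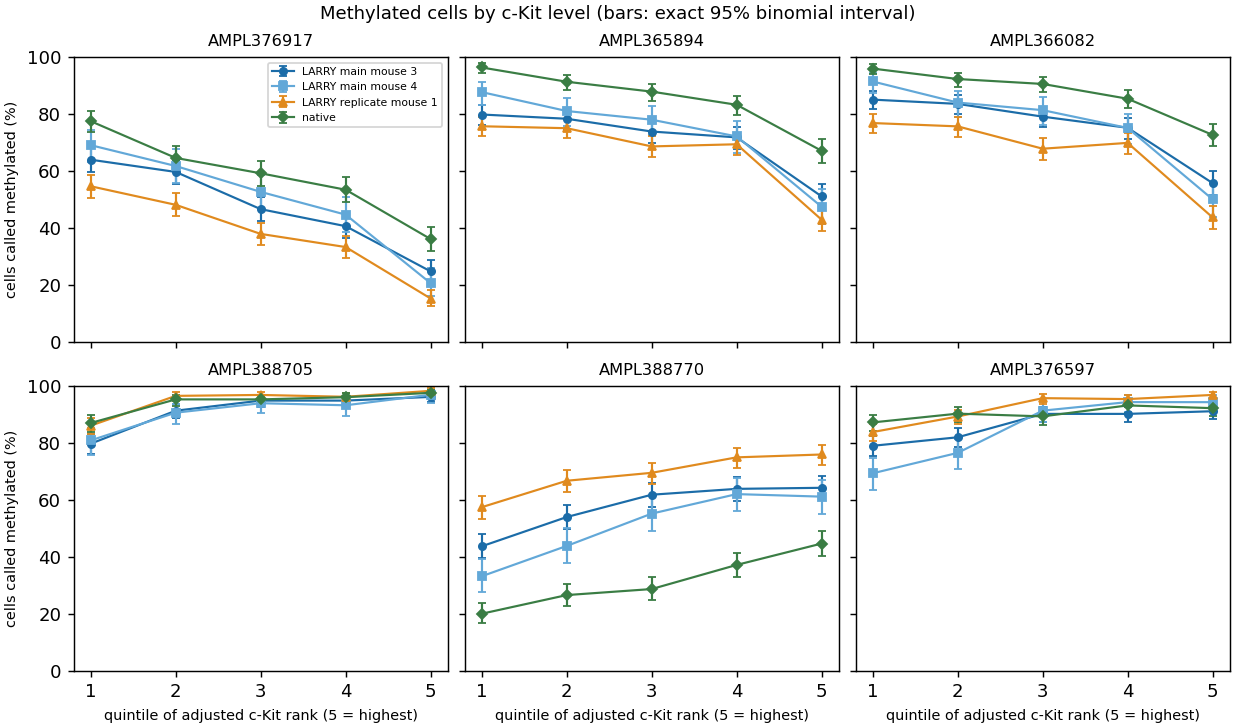
Percent of cells with the amplicon methylated (y axis) by quintile of the adjusted c-Kit rank, from lowest to highest (x axis), in each library, with exact 95% binomial intervals as bars. AMPL376917 falls at every step, AMPL365894 and AMPL366082 drop most at the highest quintile, and AMPL388770 is 22.9 points higher in the highest than in the lowest quintile on average.

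Over the lists, the median difference between the highest and lowest c-Kit quintile was 7.48 points in main mouse 3, 12.7 in main mouse 4, 5.80 in replicate mouse 1 and 7.13 in the native library for the 59 positive amplicons. For the 100 negative amplicons it was -14.5, -15.9, -13.8 and -10.8 points. Over all 588 tested amplicons it was 0.374, 0.560, -0.483 and 0 points. These lists were chosen on the same cells, so the values describe their size only. The negative amplicons were methylated in a median of 59.3% of cells and the positive ones in 74.5%, with 70.0% over all tested.

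The called amplicons also carried values for other tags, which share cells and the tag total with c-Kit. The median mean r with CD61 was 0.13 over the negative amplicons and -0.05 over the positive ones, with 0.02 over all tested. With CD49f it was -0.07 over the negative and 0.09 over the positive amplicons, with 0.02 over all. Sca-1 was on the same side of 0 for both lists, at 0.02 over the negative and 0.05 over the positive amplicons. With CD150 it was -0.05 over the negative and 0.03 over the positive amplicons, and with CD48 0.05 and -0.03. Over the 10 named negative amplicons the median was -0.225 with CD150, 0.222 with CD61 and 0.158 with CD48, against -0.246 with c-Kit itself. Over the 10 named positive ones it was 0.048, -0.096 and -0.030 with these tags, against 0.143 with c-Kit. With CD49f and CD61 added as covariates in the 3 LARRY libraries, c-Kit was called at 121 amplicons, 93 of them among the 159. With Sca-1, CD48 and CD150 added in all 4 libraries, it was called at 212, of which 155 were among the 159, and 106 were positive and 106 negative.

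Summed over amplicons, c-Kit went with slightly less methylation per cell. The share of the 404 intermediate amplicons (methylated in 25 to 90% of marrow cells on average) that was methylated in a cell had a partial rho of -0.09 with c-Kit in main mouse 3, -0.04 in main mouse 4, -0.12 in replicate mouse 1 and -0.05 in the native library. The mean was -0.08 (limma adjusted p = 0.00604 over 19 tags). This fit gave every tag with 4 libraries the same standard error of 0.0228, so the p-value rests on a spread pooled over tags. Of the 19 tags 9 were called (47.4%), and c-Kit was the only negative one. Sca-1 had 0.11, CD27 0.10 and CD61 0.17. The call for c-Kit was lost without main mouse 3 (adjusted p = 0.0712 by limma) and without replicate mouse 1 (adjusted p = 0.0676 by limma). It was also lost with log2(UMI + 1) in place of the rank (adjusted p = 0.0520 by limma) and with a minimum of 300 tag UMIs (adjusted p = 0.193 by limma). Held to reads alone, without the tag total, the rho was 0.03 (adjusted p = 0.330 by limma).

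Across the range of c-Kit the share did not change in 1 direction. From the lowest to the highest c-Kit quintile the mean share was 62.5%, 65.8%, 64.9%, 65.0% and 60.8% in main mouse 3. It was 62.7%, 65.9%, 67.1%, 67.5% and 61.6% in main mouse 4. In replicate mouse 1 it was 69.5%, 71.4%, 70.3%, 71.2% and 66.6%. In the native library it was 70.9%, 71.3%, 70.9%, 71.8% and 70.0%. The highest quintile was the lowest of the 5 in all libraries, and quintile 1 lay below quintile 4 in all of them. Reads still differed between the quintiles. In the same order their medians were 43433, 50666, 44798, 45918 and 46344 in main mouse 3. They were 29638, 45178, 40405.5, 37383 and 33015 in main mouse 4. Median tag UMIs differed too, with 222.5 in quintile 2 and 462.5 in quintile 4 of replicate mouse 1. Whether the course of the share follows reads was not tested.

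Cells of each library were also split at the median of the adjusted Sca-1 rank and at the median of the adjusted c-Kit rank, both taken over the library, as a description. On the lower Sca-1 side, the share in c-Kit-high cells was 1.14, 0.828, 1.32 and 0.218 points below that in c-Kit-low cells in main mouse 3, main mouse 4, replicate mouse 1 and the native library. On the upper Sca-1 side the difference of c-Kit-high minus c-Kit-low cells was 0.0925, 1.08, -0.402 and 0.700 points. It was negative in all 4 libraries on the lower Sca-1 side and in 1 of 4 on the upper, and the difference between the sides was not tested.

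The called amplicons were then read in cells that took no part in the calls. The mature myeloid library was set against the 3 LARRY marrow libraries without tags, which are main mouse 1, main mouse 2 and replicate mouse 2. Median reads per cell were 24569 in the mature myeloid library, and 89971, 52565 and 64337 in the marrow libraries, so cells were thinned to 12000 reads. With 1 mature library there is no test, and the description is whether it lay outside the range of the 3.

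AMPL376917, lower in c-Kit-high cells, was methylated in 76.0% of thinned mature myeloid cells, against 42.3% ± 5.87 in marrow (SD, n = 3). AMPL365894 had 90.3% in mature myeloid cells, against 63.9% ± 5.78 in marrow. AMPL388770, higher in c-Kit-high cells, had 10.3% in mature myeloid cells, against 39.8% ± 15.5 in marrow. AMPL376597 had 41.0% in mature myeloid cells, against 77.6% ± 7.26 in marrow. All 10 named negative amplicons lay above the marrow range in mature myeloid cells, and 8 of the 10 named positive ones lay below it, with AMPL388705 and AMPL376910 inside it.

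Over all called amplicons, 41 of the 59 positive ones lay below the marrow range after thinning and 6 above it, with a median difference of -14.5 points. Of the 100 negative ones 70 lay above and 17 below, with a median difference of 6.36 points. Over all 588 tested amplicons 34.2% lay below and 30.1% above, with a median of -0.574 points. As deposited, without thinning, 54 of the 59 positive amplicons lay below and none above, and of the 100 negative ones 50 lay above and 31 below, while 58.5% of all tested lay below and 14.8% above. The amplicons were not chosen on the mature library, but methylation that differs with maturity and methylation that differs with c-Kit cannot be told apart here. Across the 588 amplicons the mean r with c-Kit and the thinned difference had a Pearson r of -0.44 and a Spearman rho of -0.34, as a description over amplicons that share cells and libraries.

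**Figure D5:**
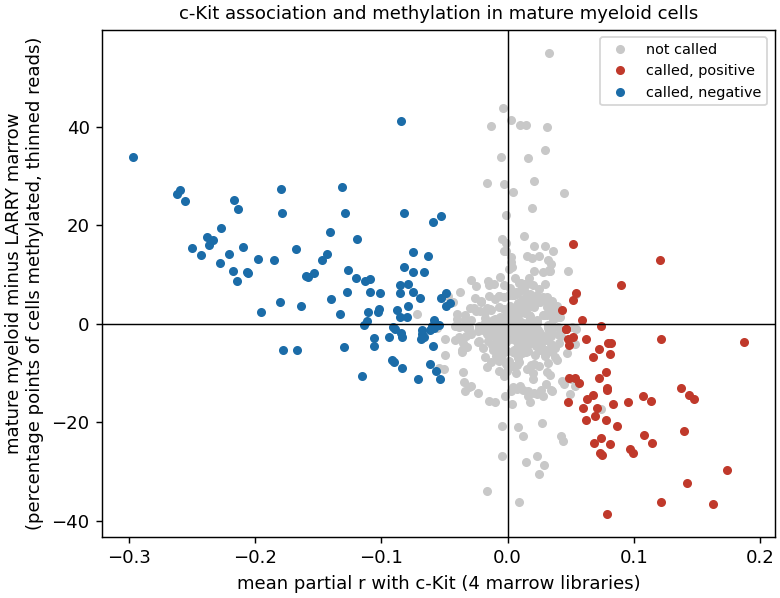
Mean partial r of each of 588 amplicons with c-Kit over the 4 marrow libraries (x axis) against the percent of cells methylated in the mature myeloid library minus the mean of the 3 LARRY marrow libraries without tags, after thinning to 12000 reads (y axis, percentage points). Called positive amplicons lie mostly below 0 (41 of 59 below the marrow range) and called negative ones mostly above it (70 of 100 above the range).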

How the data were processed

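The authors deposited, per the labels, read counts of each amplicon in each cell (scTAM-seq, Mission Bio Tapestri), and UMI counts per barcode and antibody tag, per the file headers; neither is normalized. Per the submitters' processing notes, reads were placed on mm10; the aligner and cell caller were not given in the sources used. Doublets were not called; in an alternative, the 5% of cells in which most amplicons were read were dropped.

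Cells with 100 or more tag UMIs were kept. An amplicon was called methylated with 1 or more reads, and 588 amplicons with a mean of 2 to 98% of cells called were tested. A tag counted as measured with at least 0.1% of a library's tag UMIs. Within each library the rank of a tag and the call were regressed on the ranks of total reads and total tag UMIs, and Pearson's r of the residuals was taken. Fisher z values of libraries were tested against 0 with limma 3.58.1 (R 4.3.3) over 11172 amplicon and tag pairs held by 3 or more libraries, two-sided, with Benjamini-Hochberg adjustment over all pairs. With 4 libraries an exact sign permutation test cannot go below 0.125. The p-values measure the spread between 4 libraries, part of which may be technical. Binomial intervals are exact (Clopper-Pearson) and cover counting error only. Tag relations, levels and quintiles are descriptions with no p. Python 3.11.15, numpy 2.4.6, pandas 2.3.3 and scipy 1.17.1 were used.

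Named amplicons were the 10 highest and the 10 lowest by mean r among those called with the same sign in 4 libraries; named tags were the 3 most and 3 least like c-Kit and those on the marker lists. The members and lists were chosen with earlier results of these data known. CD49f is on no list but was named by the rule. AMPL371723 was named after its values were seen, as the exception to the shared sign. Groups came from the sample titles. Thinning drew reads at random to 12000 per cell and left out 0.216 to 0.954% of marrow cells and 2.60% of mature myeloid cells.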

Additional observations from a re-analysis of the deposited data

Results flagged for a closer look

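The relation of c-Kit with CD48 had opposite signs in the LARRY and the native libraries when total tag UMIs were held fixed. The partial rho was 0.16 in main mouse 3, 0.25 in main mouse 4 and 0.21 in replicate mouse 1, against -0.493 in the native library. The difference was not tested. The signs were alike under some other settings. With a total of the tags other than the pair, the LARRY values were 0.36, 0.44 and 0.43 and the native value 0.33, and with no covariate 0.49, 0.54 and 0.51 and the native value 0.38. With a minimum of 300 tag UMIs the native value was -0.06. With a total over the 4 tags that make up the whole native panel, the LARRY values were -0.59, -0.57 and -0.50.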

How the results depend on the processing

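The count of 159 c-Kit amplicons (59 positive, 100 negative) was 100 with a minimum of 300 tag UMIs, and ranged from 96 to 210 when 1 library was left out. Positive calls numbered 35 with the centred log ratio, 128 with reads as the sole covariate, 27 with a minimum of 300, 106 with Sca-1, CD48 and CD150 as covariates, 89 with the total over the 4 shared tags and 39 with CD49f and CD61 as covariates, the last 2 chosen after seeing the data. They ranged from 26 to 103 with 1 library left out. Negative calls numbered 65 with reads as the sole covariate and ranged from 70 to 107 with 1 library left out. Positive calls were 37.1% of calls, and 21.3%, 66.3%, 27.0%, 50% and 49.2% under the first 5 of these settings. The rho of c-Kit with the share of intermediate amplicons was 0.0295 with reads as the sole covariate (limma adjusted p = 0.330), -0.0624 with log2(UMI + 1) (limma adjusted p = 0.0520) and -0.0668 with a minimum of 300 (limma adjusted p = 0.193). It ranged from -0.0881 to -0.0626 with 1 library left out, and the cause was not tested. Tags with a positive mean rho numbered 6, but 19 with no covariate, 12 with the total of the tags other than the pair, 13 with the total over the 4 shared tags, and 4 to 6 with 1 library left out. Median c-Kit counts in main mouse 3, main mouse 4, replicate mouse 1 and the native library were 8, 5, 14 and 7 with no minimum and 38, 36, 48 and 58 with a minimum of 300. Of 420 checks of the 20 named amplicons under 21 alternatives 416 kept direction and call, 4 lost the call and 0 reversed. These amplicons were chosen on the same cells as the most extreme calls with 1 sign in all 4 libraries, which favours this outcome. The 80 checks that left out a library could not reverse. The lost calls were AMPL388409 and AMPL376910 with the centred log ratio, and AMPL388409 and AMPL388365 with a minimum of 300. No paired analysis was possible because each value is computed within 1 library and the libraries compared share fewer than 2 replicate numbers. Tag depth limits single cells: the median cell held 17 to 27 c-Kit UMIs.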
